A study of Mus musculus with 4 samples.

Results

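The genes described here are those of potassium channels: every gene of the array whose symbol starts with Kcn, which comprises the pore-forming subunits, their auxiliary subunits and the regulator gene Kcnrg. The authors' sheet held 96 such probe sets of 35474, which gave 94 genes of 22347 named ones, each represented by its brightest probe set on the mean log2 scale. RNA from the hypothalamus of 12-week-old male mice was compared between 2 arrays of the genotype ENOI2DeltaFosB and 2 arrays of wild-type control mice, named A and B in each group and called ΔFosB and control here. All mice were untreated. ΔFosB is a short splice form of the transcription factor FosB, a partner in AP-1 dimers, and Eno2 encodes neuron-specific enolase. The construct behind the genotype name, the strain and the number of animals in each RNA sample are not stated in the sources at hand. The labels do not tie the arrays of a group to separate animals, so each p-value reflects the spread among these samples alone, which may be technical.

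Potassium channels set the resting potential of neurons and glia and end the action potential. Kv channels open on depolarization, Kir channels carry potassium near rest, K2P channels are leak channels, and BK, SK and Slack-type channels open with internal calcium or sodium. Auxiliary subunits (Kvβ, KChIP, KCNE and BK β proteins) change the gating, the trafficking or the surface number of the pores they bind. In the hypothalamus these channels shape the firing of peptide neurons and the buffering of potassium by glia.

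On the ΔFosB arrays, 12 potassium channel genes were lower and 9 were higher among the 77 that passed a filter on low signal. By measured log2 fold change the lower ones were led by Kcng4, Kcnab3 and Kcna1, and they included the pores Kcna1, Kcna2 and Kcna4 together with the Kvβ genes Kcnab2 and Kcnab3. The higher ones were led by Kcnip2, which encodes a KChIP, and Kcnh1, which encodes the ether-à-go-go channel, and included 6 auxiliary subunit genes. The test was limma with an intensity trend, with Benjamini-Hochberg adjustment over all 15204 genes past the filter and a threshold of 0.05 for the adjusted p. Of the 77 genes 27.3% passed (11.7% higher and 15.6% lower), where 12.6% of all genes tested did (5.92% higher and 6.67% lower). With median centring of the arrays 9 were higher and 13 lower, and over all genes that setting gave 491 higher and 1554 lower in place of 900 and 1014. With no filter 18 of the 94 passed, 9 in each direction (19.1%, against 7.65% of all genes, of which 3.62% higher and 4.03% lower).

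Most of these differences were small, and 16 of the 21 were under 1.5-fold. The lower genes of at least 1.5-fold were Kcng4, Kcnab3 and Kcna1, which is 3.19% of the 94 and stands beside 0.935% of all named genes. The higher ones were Kcnip2 and Kcnh1 (2.13%, beside 0.671%). For each of the 21 genes the difference between the groups was larger than the larger A to B difference within a group. The test favours such genes, so this follows in part from their selection. The median log2 fold change (ΔFosB minus control) of the 77 genes was 0.05, and that of all genes tested was 0.02. Over the 94 genes the arrays of both groups did not overlap for 66 (70.2%, beside 59% of all named genes), 46 of them with ΔFosB higher (48.9%, beside 39.6%) and 20 with ΔFosB lower (21.3%, beside 19.3%). Without a filter all named genes also lay above 0 more often than not, 63.8% of them beside 68.1% of the 94. With 2 arrays a group, an exact permutation test of a single gene cannot give a p below 0.333, so each call rests on the spread that limma shares over genes. In an unmoderated test 0 of 15204 genes passed, with 23 potassium channel genes and 2783 genes in all at an unadjusted p under 0.05.

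**Figure D1:**
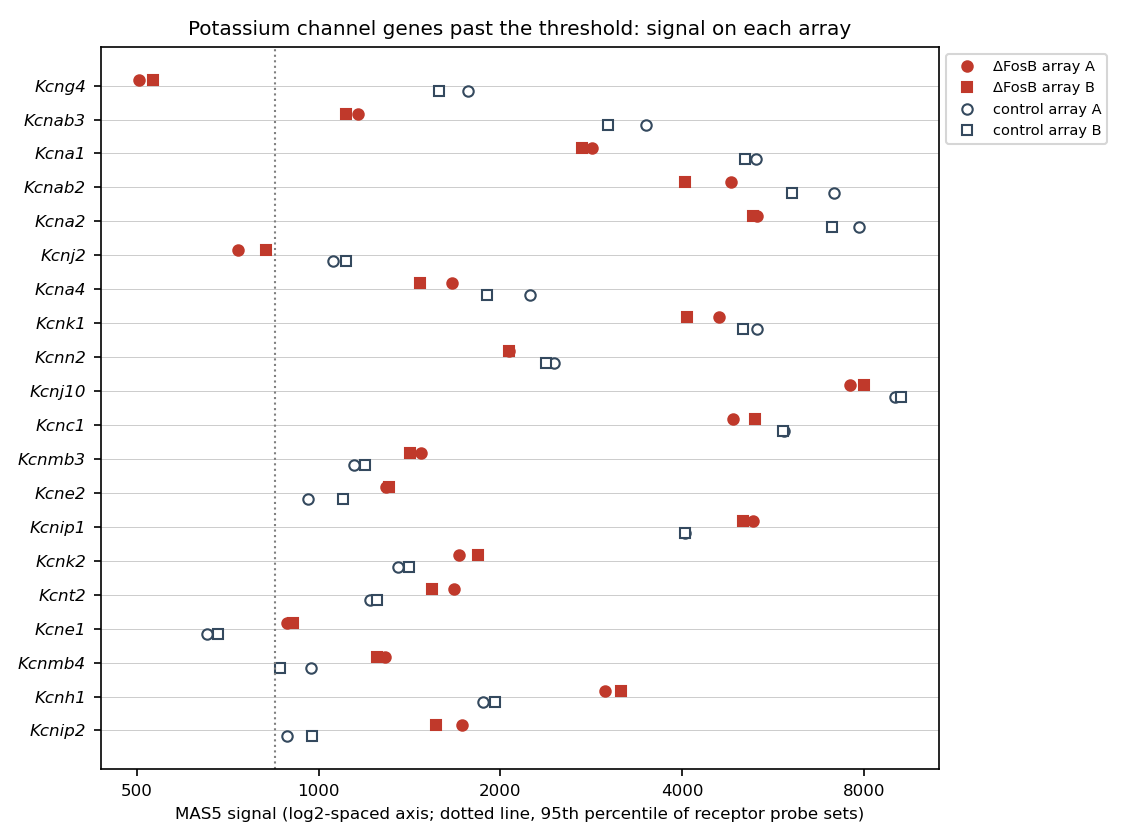
MAS5 signal on each array (x axis, log2-spaced) of 20 potassium channel genes past the threshold (y axis), from the lowest to the highest log2 fold change. Filled red symbols are ΔFosB arrays and open symbols control arrays, with circles for A and squares for B, and the dotted line is the 95th percentile of receptor probe sets (846). In every row both ΔFosB arrays lie on the same side of both control arrays, from Kcng4 at 503.5 and 532 against 1770 and 1581 to Kcnip2 at 1726.5 and 1565 against 888 and 975. The rows were chosen by a test that favours such separation.

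Background was gauged from 1402 olfactory and vomeronasal receptor probe sets, whose median signal was 310.4 and whose 95th percentile was 846. Signals under that percentile are called the receptor range here. Of the 94 genes, 65 lay above it in both groups, and 24 lay in it in both. Another 3 lay in it on the ΔFosB arrays alone, Kcng4 and Kcnj2 among them, and Kcne1 and Kcnj5 on the control arrays alone. For a called gene with a group in this range the log2 fold change is a difference of dim signals, and the fold is given as a bound against that percentile. The 17 genes below the filter had signals of 194 to 773 and log2 fold changes of -0.11 to 0.36, 15 of them above 0. With no filter 0 of the 17 passed limma's test (lowest adjusted p = 0.0781), and for 3 the unadjusted p was under 0.05. The probe sets of Kcnh8 were the only ones to share a gene, and all 3 had log2 fold changes above 0 (0.25, 0.13 and 0.05).

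Start regions are shown for 5 genes because FosB proteins act in AP-1 dimers, which bind the motif TGACTCA, read on the opposite strand as TGAGTCA. Kcng4, Kcnip2 and Kcnh1 are the called genes of at least 1.5-fold with a matched window, Kcna2 is a called Kv1 pore, and Kcnk2 was picked as the called gene that holds the AP-1 motif. The windows are the 250 bases before the start in RefSeq (GRCm38.p6), written along the gene's strand. A start region was matched for 69 of the 94 genes, with 94 windows in all. Capitals mark AP-1 motifs and the CCAAT box, which on the opposite strand reads ATTGG, and the motifs do not overlap one another in letters. Kcnk2 has 4 starts in the table, and the window shown is the one that holds an AP-1 motif.
Kcng4, chr8:119635681-119635930, minus strand: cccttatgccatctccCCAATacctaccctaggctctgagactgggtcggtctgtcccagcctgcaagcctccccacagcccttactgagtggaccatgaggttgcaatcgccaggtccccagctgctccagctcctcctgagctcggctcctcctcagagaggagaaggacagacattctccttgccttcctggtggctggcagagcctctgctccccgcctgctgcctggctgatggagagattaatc
Kcna2, chr3:107101317-107101566, plus strand: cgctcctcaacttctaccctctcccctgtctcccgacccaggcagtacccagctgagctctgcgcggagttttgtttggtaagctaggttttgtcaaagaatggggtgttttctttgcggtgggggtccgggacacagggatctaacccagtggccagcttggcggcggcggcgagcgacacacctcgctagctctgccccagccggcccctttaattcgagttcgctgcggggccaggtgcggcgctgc
Kcnip2, chr19:45816064-45816313, minus strand: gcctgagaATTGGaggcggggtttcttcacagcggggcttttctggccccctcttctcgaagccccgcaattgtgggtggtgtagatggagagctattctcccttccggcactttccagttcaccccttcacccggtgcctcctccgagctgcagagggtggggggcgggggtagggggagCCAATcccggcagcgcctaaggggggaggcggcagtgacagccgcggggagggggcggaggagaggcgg
Kcnh1, chr1:192190527-192190776, plus strand: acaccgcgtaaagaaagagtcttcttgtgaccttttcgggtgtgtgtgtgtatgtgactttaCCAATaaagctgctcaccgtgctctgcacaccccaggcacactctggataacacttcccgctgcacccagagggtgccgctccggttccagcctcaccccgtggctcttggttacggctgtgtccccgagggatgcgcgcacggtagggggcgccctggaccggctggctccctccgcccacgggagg
Kcnk2, chr1:189344193-189344442, minus strand: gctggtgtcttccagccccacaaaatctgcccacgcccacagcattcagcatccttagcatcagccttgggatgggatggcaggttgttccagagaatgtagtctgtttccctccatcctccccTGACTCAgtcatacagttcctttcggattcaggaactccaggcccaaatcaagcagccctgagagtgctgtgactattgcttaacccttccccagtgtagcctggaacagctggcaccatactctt

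None of these windows but that of Kcnk2 holds the letters of the AP-1 motif, which there begin 126 bases before the start. Among the windows of potassium channel genes 2.13% held the motif, and among all 32851 windows 4.46% did. Kcnip3 and Kcnk2 were the genes that held it, and of the 16 called genes with a matched window 1 did. The related motif TGACGTCA was in 0.0% of the potassium channel windows and 1.55% of all windows. The CCAAT box was in 28.72% and 33.85%, and counted by gene it was in at least 1 window of 24 of the 69 matched genes, 10 of them among the 16 called. Kcnk2 counts among these through a window not shown. A gene with more windows has more chances of a match, and the share by gene was not counted over all genes, so the 10 of 16 has no reference. It begins 234 bases before the start in Kcng4, 188 in Kcnh1, and 69 and 242 in Kcnip2. A match describes letters only, and whether any factor binds there was not tested.

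Among the Kv1 pores, which open at low voltage along axons and at terminals, 3 of 6 tested genes fell and 0 rose. Counts by subfamily, here and below, stand beside 5.92% higher and 6.67% lower of all genes tested. They rest on few genes, and no subfamily was tested as a set. Kcna1, the gene of episodic ataxia in humans, had signals of 2841 and 2734 on the ΔFosB arrays, against 5305 and 5075 on the control arrays. This is a 1.86-fold lower level (log2 fold change -0.90, SE 0.06, limma adjusted p = 0.000106), and the groups lay far apart beside the spread within each. Kcna2, which assembles with Kcna1, had 5315 and 5239.9 in ΔFosB against 7844 and 7088 in control. It was 1.41-fold lower (-0.50, SE 0.06, adjusted p = 0.00153), with nearly equal ΔFosB arrays. Kcna4, the pore of a rapidly inactivating axonal current, had 1662 and 1469 in ΔFosB against 2237 and 1901 in control, with array A the higher in both groups (-0.40, SE 0.09, adjusted p = 0.0271). Its call ended without control A (adjusted p = 0.166) and without ΔFosB B (0.0612), and over the alternatives other than the unmoderated test its log2 fold change stayed below 0. The lymphocyte and brain channel gene Kcna3 pointed the other way without passing, with 3100 and 3246 in ΔFosB against 2829 and 2876 in control (0.15, SE 0.06, adjusted p = 0.119). Kcna3 and Kcna2 are next to each other on chromosome 3 in the order of protein-coding genes, and Kcna1 lies beside Kcna5 and Kcna6 on chromosome 6.

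The Kvβ genes encode cytoplasmic proteins that bind Kv1 pores, and 2 of 3 fell. Kcnab3 had 1164 and 1109.6 on the ΔFosB arrays, against 3483 and 3014 on the control arrays. It was 2.85-fold lower (-1.51, SE 0.08, adjusted p = 4.27e-05), and of the genes above the receptor range in both groups it had the lowest log2 fold change of the 94. Kcnab2, the main brain Kvβ, had 4827 and 4044 in ΔFosB against 7127 and 6081 in control. Array A was the higher one in each group, and the groups did not overlap (-0.58, SE 0.10, adjusted p = 0.00715). Kcnab1, whose protein inactivates Kv1 pores, had 3125 and 2719 in ΔFosB against 2874 and 2406 in control. Those groups overlapped, and it did not pass (0.15, SE 0.10, adjusted p = 0.340).

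The Kv3 pores allow fast repolarization and high firing rates, and among them Kcnc1 fell. It had 4864 and 5272 in ΔFosB against 5896 and 5882 in control, with control arrays that barely differed (-0.22, SE 0.06, adjusted p = 0.0424). The groups did not overlap, but the call depended on single arrays. It ended without control A (adjusted p = 0.167), control B (0.113) or ΔFosB A (0.171), with quantile normalization (0.0645), with no filter (0.0505) and without the trend (0.0631). Kcnc2 had 3920 and 3073 in ΔFosB against 4573 and 3983 in control and did not pass (-0.30, SE 0.11, adjusted p = 0.116). Without ΔFosB A it was -0.47 (adjusted p = 0.00388), so 1 array set that value. Kcnc4 differed by less than the spread between arrays, with 3736 and 4061 in ΔFosB against 3900.1 and 3968 in control.

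Kcng4, a silent subunit that forms channels only together with Kv2 pores, fell to signals in the receptor range, so its place in the order of the genes is not settled. Signals were 503.5 and 532 on the ΔFosB arrays, against 1770 and 1581 on the control arrays. The difference of these dim signals was -1.69, the lowest measured value of the 94 genes (SE 0.08, adjusted p = 1.98e-05), and the group means differed at least 1.98-fold. Of the pores it joins, Kcnb2 did not pass. It had 2599 and 2836 in ΔFosB against 2485 and 2334 in control (0.17, SE 0.07, adjusted p = 0.130). The ΔFosB arrays were the higher ones. Of the silent subunits 7 were tested, 0 rose and Kcng4 was the 1 that fell, where 6.67% of all genes tested were lower. Kcnf1 had 1171.5 and 1022 in ΔFosB against 956 and 810.5 in control, a difference that did not pass (0.31, SE 0.10, adjusted p = 0.0732) but did without ΔFosB B (0.41, adjusted p = 0.0250). Kcng2 had 1489.5 and 1499 in ΔFosB against 1345 and 1352 in control (0.15, SE 0.06, adjusted p = 0.140). Kcns3 (0.05, SE 0.06) and Kcnv1 (0.10, SE 0.08) also did not pass, and the signals of Kcnv1 lay in the receptor range.

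**Figure D2:**
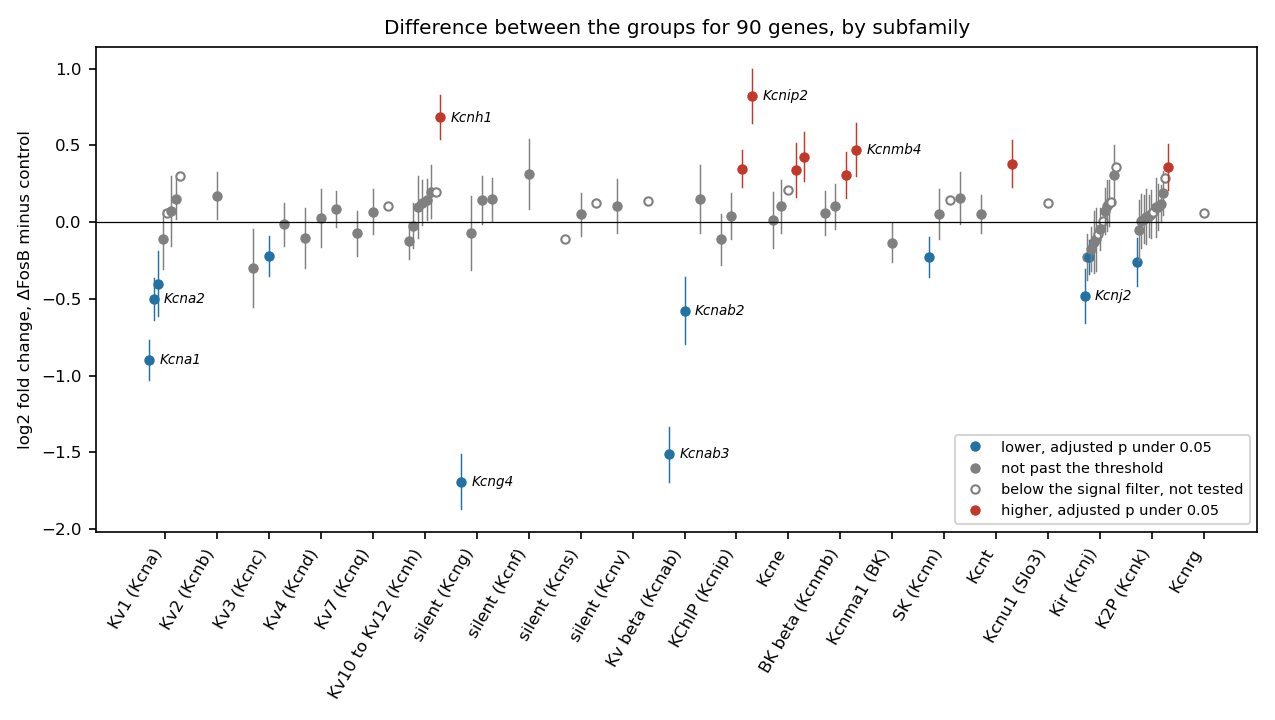
Log2 fold change (y axis, ΔFosB minus control) of 90 genes placed by subfamily along the x axis, with 95% confidence intervals for the tested ones. Red points are higher and blue points lower at an adjusted p under 0.05, grey points did not pass, and open points lay below the filter. The lower genes stand in Kv1, Kv3, Kvβ, Kcng, SK, Kir and K2P, and the higher ones in Kcnh, KChIP, Kcne, BK β, Kcnt and K2P.

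Among the Kcnh pores 1 of 7 rose and 0 fell, where 5.92% of all genes tested were higher. Kcnh1, the ether-à-go-go channel of neurons, had 2981 and 3167 on the ΔFosB arrays, against 1869 and 1959 on the control arrays. It was 1.61-fold higher (0.68, SE 0.06, adjusted p = 0.000494), and the groups were far apart. Kcnh2, the ERG channel known for its part in cardiac repolarization, had 3797 and 3784 in ΔFosB against 4089 and 4155 in control. That is lower on both ΔFosB arrays, and it did not pass (-0.12, SE 0.05, adjusted p = 0.169). The probe set that stands for Kcnh8 carries a further gene identifier, and it had 1788 and 1918 in ΔFosB against 1680.2 and 1708 in control (0.13, SE 0.06, adjusted p = 0.214).

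The KChIP genes encode calcium-binding proteins that bring Kv4 pores to the membrane, and 2 of 4 rose while 0 fell. Kcnip2 had 1726.5 and 1565 on the ΔFosB arrays, against 888 and 975 on the control arrays. It was 1.77-fold higher (0.82, SE 0.08, adjusted p = 0.000542), the highest log2 fold change of the 94 genes, with both control signals just above the receptor range. Kcnip1 had 5241 and 5052 in ΔFosB against 4043 and 4039 in control, 1.27-fold higher with control arrays that were almost equal (0.35, SE 0.05, adjusted p = 0.00456). Kcnip3, also known as the transcriptional repressor DREAM, had 5567 and 5258 in ΔFosB against 6266 and 5446 in control. Kcnip4 had 8740 and 7702 in ΔFosB against 8222 and 7766 in control. The groups of both overlapped, and neither passed (-0.11, SE 0.07, adjusted p = 0.341 for Kcnip3, and 0.04, SE 0.07, adjusted p = 0.733 for Kcnip4).

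The Kv4 pores that KChIPs bind carry the A-type current of dendrites, and limma called 0 of 3 (0 also at an unadjusted p under 0.05). Kcnd2 had 6032 and 5799 on the ΔFosB arrays, against 5657 and 5498 on the control arrays (0.08, SE 0.05, adjusted p = 0.310). The 95% confidence interval of its log2 fold change ran from -0.03 to 0.20. Kcnd3 had 2868.5 and 2983 in ΔFosB against 3447 and 2861 in control, where control array A was the high one (-0.10, SE 0.09, adjusted p = 0.461). Without that array its log2 fold change was 0.03.

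The BK channel joins calcium entry to repolarization, and its β subunits set calcium sensitivity and inactivation. Of the 4 β subunit genes 2 rose and 0 fell. Kcnmb4, the chief neuronal β subunit, had 1289.9 and 1251 on the ΔFosB arrays, against 969.8 and 863 on the control arrays, and was 1.39-fold higher (0.47, SE 0.08, adjusted p = 0.00559). Kcnmb3 had 1476 and 1418 in ΔFosB against 1144 and 1194 in control, 1.24-fold higher (0.31, SE 0.06, adjusted p = 0.0184), and its call ended without control A (0.28, adjusted p = 0.126). The ΔFosB arrays were the higher ones for both genes. Kcnmb2 had 1241 and 1250.5 in ΔFosB against 1217 and 1175.5 in control and did not pass (0.06, SE 0.06, adjusted p = 0.564). The pore gene Kcnma1 had 4386 and 4224.5 in ΔFosB against 4626 and 4828 in control. Its arrays did not overlap, with ΔFosB lower, and it did not pass (-0.13, SE 0.06, adjusted p = 0.145).

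KCNE proteins are single-span subunits that modify Kv7, ERG and other pores, and 2 of 4 tested genes rose while 0 fell. Kcne1, the partner of the cardiac slow delayed rectifier, had 886 and 907 on the ΔFosB arrays, against 653 and 680.1 on the control arrays. The control signals lay in the receptor range, so the group means differed at least 1.06-fold (0.43, SE 0.07, adjusted p = 0.00641). Kcne2, which is also abundant in choroid plexus, had 1294 and 1309 in ΔFosB against 961 and 1098.5 in control (0.34, SE 0.08, adjusted p = 0.0264). The control arrays were unequal, and the call ended without control A (0.24, adjusted p = 0.167). Kcne1l had 1310.3 and 1139 in ΔFosB against 1236 and 1185 in control, and these groups overlapped (0.01, SE 0.08, adjusted p = 0.927).

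**Figure D3:**
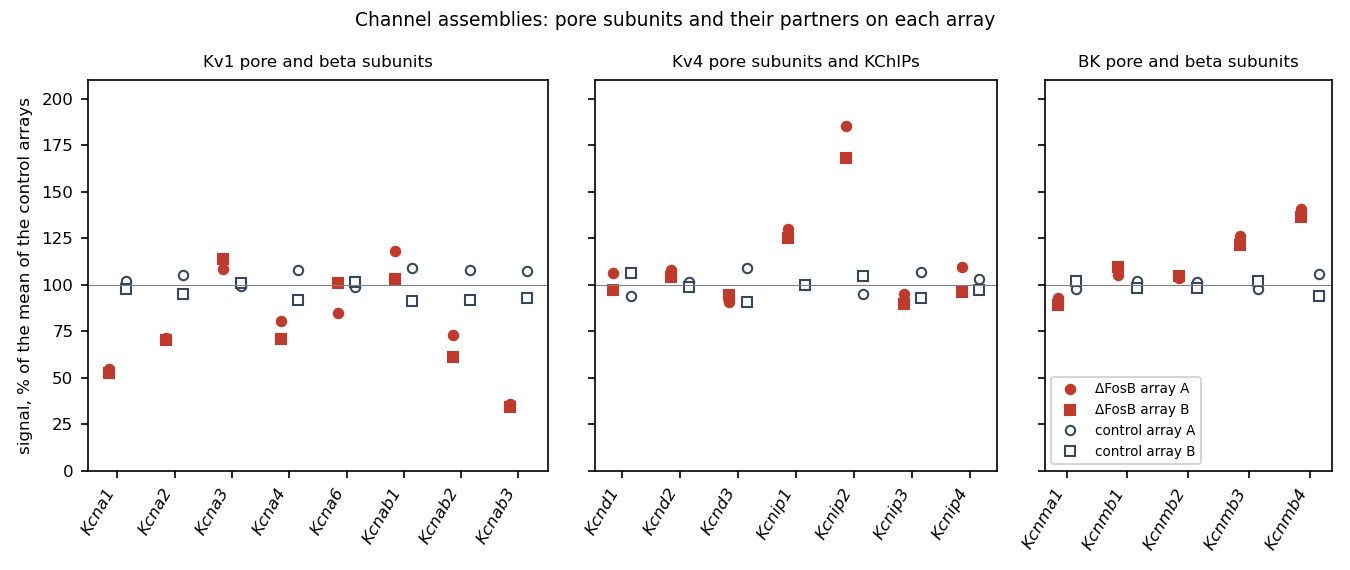
Signal of each array as a percentage of the mean of the control arrays of the same gene (y axis, from 0), for Kv1 pores with Kvβ subunits, Kv4 pores with KChIPs, and the BK pore with its β subunits. Filled red symbols are ΔFosB arrays, drawn left of the open control arrays. Kcna1, Kcna2, Kcna4, Kcnab2 and Kcnab3 lie below the control arrays, and Kcnip1, Kcnip2, Kcnmb3 and Kcnmb4 above them.

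The Kv7 pores, which carry the M-current that restrains repetitive firing, had 0 of 4 past the threshold in limma and 1 at an unadjusted p under 0.05. Kcnq3 had 2926 and 2865 on the ΔFosB arrays, against 3177 and 2922 on the control arrays. The groups overlapped (-0.07, SE 0.06, adjusted p = 0.470), and the 95% confidence interval ran from -0.22 to 0.07.

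Among the channels opened by internal calcium or sodium, Kcnn2 fell and Kcnt2 rose. Kcnn2, an SK channel behind the afterhyperpolarization, had 2062.5 and 2067 on the ΔFosB arrays, against 2455 and 2378 on the control arrays (-0.23, SE 0.06, adjusted p = 0.0403). The groups were tight and apart, yet the call ended when any single array was left out (adjusted p of 0.0900 to 0.210) and with quantile normalization (0.0534). Kcnt2, the Slick channel, had 1672.5 and 1539 in ΔFosB against 1216 and 1248 in control, 1.30-fold higher (0.38, SE 0.07, adjusted p = 0.00897). Its call ended without control A (0.36, adjusted p = 0.0662). Kcnn3 had 2936 and 3087 in ΔFosB against 2874 and 2527 in control, with control array B the low one (0.16, SE 0.07, adjusted p = 0.186). The Slack channel gene Kcnt1 had 4148 and 4076 in ΔFosB against 3915 and 4007 in control (0.05, SE 0.05, adjusted p = 0.534).

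Of 11 tested inward rectifiers 2 fell and 0 rose, where 6.67% of all genes tested were lower. Kcnj2, a strong rectifier that holds the resting potential, had 736 and 818 on the ΔFosB arrays, inside the receptor range, against 1057 and 1110.2 on the control arrays. The group means differed at least 1.28-fold (-0.48, SE 0.08, adjusted p = 0.00561). Kcnj10, the glial channel of potassium buffering, had 7588 and 8003 in ΔFosB against 9001 and 9204 in control, 1.17-fold lower (-0.22, SE 0.05, adjusted p = 0.0215). Its call ended without control A (adjusted p = 0.0810), control B (0.0869) or ΔFosB A (0.0710) and without the trend (0.05001). Kcnj16, which forms channels with Kcnj10 and neighbours Kcnj2 on chromosome 11, had 4277 and 3864.5 in ΔFosB against 4644.5 and 4527 in control. It was lower on both ΔFosB arrays without passing (-0.17, SE 0.06, adjusted p = 0.111). Among the G-protein-gated pores, Kcnj5 and Kcnj6 lay just outside the threshold in opposite directions. Kcnj5 had 897 and 1029 in ΔFosB against 749 and 807 in control, with both control signals in the receptor range (0.31, SE 0.09, adjusted p = 0.0525). It passed without ΔFosB A (0.0139), without the trend (0.0479), with robust estimation (0.0406), with single-identifier probe sets (0.0495) and with the replicate block (0.00591). Kcnj6 had 1337 and 1288 in ΔFosB against 1580.4 and 1492 in control (-0.23, SE 0.06, adjusted p = 0.0546). It passed with quantile normalization (0.0479), median centring (0.0308), robust estimation (0.0486) and the replicate block (0.0162).

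Of 12 tested K2P leak channels 1 rose and 1 fell. Over all genes tested 5.92% were higher and 6.67% lower, so these counts do not set the K2P genes apart. Kcnk2, the mechanosensitive TREK channel, had 1708 and 1837 on the ΔFosB arrays, against 1354 and 1411 on the control arrays. It was 1.28-fold higher (0.36, SE 0.07, adjusted p = 0.0109), and its call ended without control A (0.33, adjusted p = 0.0817). Kcnk1, the TWIK channel, had 4601 and 4076 in ΔFosB against 5323 and 5041 in control, and array A was the higher one in both groups (-0.26, SE 0.07, adjusted p = 0.0451). That call ended without control A (adjusted p = 0.218), control B (0.0732) or ΔFosB B (-0.17, adjusted p = 0.182), with quantile normalization (0.0814), with no filter (0.0541) and without the trend (0.0613).

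By role, 6 of 15 tested auxiliary subunit genes rose and 2 fell. Of 26 voltage-gated pores 1 rose and 5 fell. Over all genes tested 5.92% were higher and 6.67% lower. The counts by role are descriptions, and the difference between the roles was not tested. In the fits other than the unmoderated test, 11 of the 21 calls held wherever the gene was tested: Kcng4, Kcnab3, Kcna1, Kcnab2, Kcna2, Kcnj2, Kcnip2, Kcnh1, Kcnmb4, Kcne1 and Kcnip1. The filter on the upper 40% of signal left Kcng4, Kcnj2, Kcne1, Kcnip2 and Kcnmb4 of these untested.

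**Figure D4:**
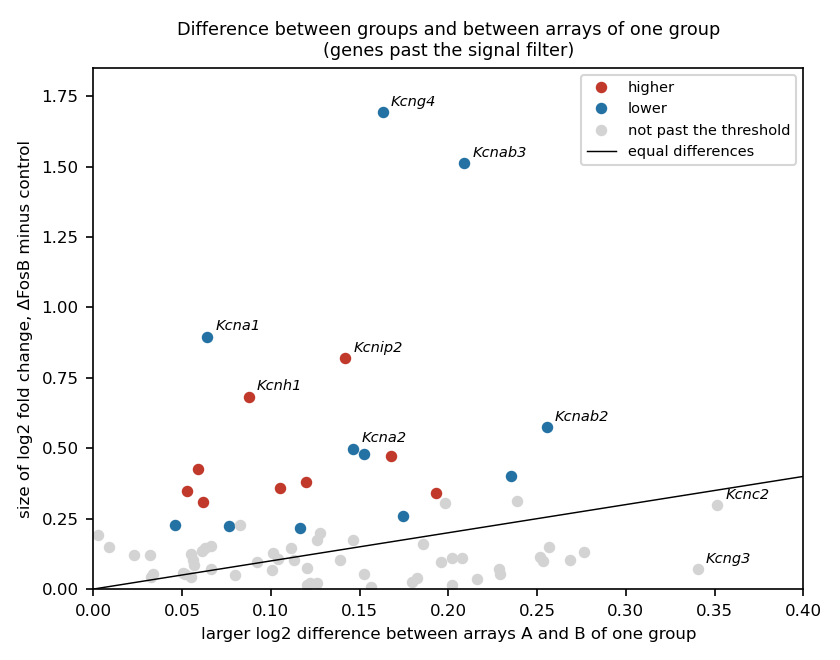
Size of the log2 difference between the groups (y axis) against the larger log2 difference between arrays A and B of a group (x axis) for 73 tested genes, with red points higher, blue points lower and grey points not past the threshold. The line marks equal differences. All 20 coloured points lie above it, as the test favours such genes, and Kcnc2 lies below it with a group difference of 0.30.

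Of 20 genes of proteins that bind these channels or traffic them under other names, 17 were tested, 0 rose and 2 fell. Over all genes tested 5.92% were higher and 6.67% lower, so a count this small does not set the list apart. Cntn2, the contactin that gathers Kv1 channels beside the node, had 3096 and 3475 on the ΔFosB arrays, against 4150 and 4178 on the control arrays (-0.34, SE 0.07, adjusted p = 0.0142). The call ended without control A (adjusted p = 0.0684) or control B (0.0530). Adam23, a receptor of the secreted Kv1 regulator Lgi1, had 4875 and 4977 in ΔFosB against 5642 and 5693 in control (-0.20, SE 0.05, adjusted p = 0.0362). That call ended when any single array was left out (adjusted p of 0.0775 to 0.141), with quantile normalization (0.0603) and without the trend (0.0568). The scaffold gene Dlg4 (0.16, SE 0.05, adjusted p = 0.0626), the Kv4 partner Dpp10 (0.16, SE 0.06, adjusted p = 0.124) and the sulphonylurea receptor gene Abcc9 (-0.18, SE 0.07, adjusted p = 0.117) had the largest differences that did not pass. Lrrc26, Lrrc38 and Lrrc52, which encode BK γ subunits, lay in the receptor range in both groups. Lrrc55, a further gene of this kind, lay above that range and did not pass. It had 1928 and 2054 in ΔFosB against 2050 and 1948 in control (-0.01, SE 0.06, adjusted p = 0.960).

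Marker lists of several cell types and regions differed between the same arrays, and their part in the potassium channel differences was not tested. The lists were chosen with earlier results of these data known, so their counts follow in part from that choice. Of all genes tested, 6.67% were lower and 5.92% higher. In bulk RNA, fewer cells of a type in the sample, whatever the reason, and less RNA per cell cannot be told apart. Of 8 genes of fast-spiking neurons, 8 were lower (7 without control A or B), with summed signals of 32020 and 28941 on the ΔFosB arrays, against 49255 and 47144 on the control arrays. Of 12 genes of oligodendrocytes and myelin, 12 were lower (11 without either control replicate), with sums of 80310 and 86654 in ΔFosB against 116576 and 120297 in control. Of 10 genes of midbrain dopamine neurons, 6 were lower, with sums of 17803 and 18373 in ΔFosB against 49112 and 41735 in control, and Foxa2 lay in the receptor range. With 2 arrays a group, genes called lower share the same ΔFosB arrays by design. A link between these lists and the lower potassium channel genes was not tested. The thalamic list had 1 of 10 genes lower. In limma 7 of the 10 had an unadjusted p under 0.05, Tnnt1 among them with ΔFosB higher. Its median log2 fold change was -0.46, and ran from -0.79 without ΔFosB A to -0.15 without ΔFosB B. The sums of this list differed within groups as well (40052 and 29030 in ΔFosB, 50608 and 39340 in control). The astrocyte list had 1 of 7 genes higher and 3 lower, with sums of 41853 and 42544 in ΔFosB against 44174 and 45721 in control. Vessel genes were lower for 3 of 6, and for 1 without control A or control B. Of 5 tested general neuronal genes limma called 0 (1 at an unadjusted p under 0.05, and 1 called without ΔFosB A), and of 5 microglial genes 0 (0 at that unadjusted p).

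Genes that mark the labelled tissue were higher on the ΔFosB arrays, 10 of 13, and Agrp lay in the receptor range. Their sums were 54662 and 57019 in ΔFosB against 18814 and 30392 in control. The control arrays thus differed from each other as well, with B the higher one. Among cortical and hippocampal genes 2 of 4 tested were higher, while Neurod6 and Tbr1 lay in the receptor range. Of 4 tested striatal genes 2 were higher and 2 lower, where leaving out control A gave 1 and 0, and leaving out control B or ΔFosB B gave 1 lower. Fosb, the gene whose splice form ΔFosB the genotype name carries, had 1579 and 2189 in ΔFosB against 1377 and 1219.8 in control (0.52, SE 0.14, adjusted p = 0.0419). That call ended without control A (adjusted p = 0.0838), control B (0.143) or ΔFosB B (0.28, adjusted p = 0.0654), and with quantile normalization (0.0660), median centring (0.0723), no filter (0.0549), no trend (0.0514) and robust estimation (0.133). Which part of Fosb its probe set covers was not analysed here. Summed signals were 68636594 to 68961786 per array, and the number of arrays limits the precision.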

How the data were processed

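Per the labels' protocols, hypothalamic RNA isolated with Trizol was turned into biotinylated cRNA and hybridized to Affymetrix arrays. The authors deposited linear intensities per probe set. MAS5 is the only tool named, per the submitters' processing notes. The build, the annotation release and the scaling target are not stated in the sources at hand. The 16 ratio columns in the authors' sheets were not used, and the series' value table equalled the first sheet (largest difference 0).

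Intensities were taken to log2 without pseudocount or further normalization. Each gene of the file's gene column was represented by its probe set of highest mean signal, and the upper 60% of signal (717 and above) was tested, 15204 genes. The receptor probe sets used as background were removed by this filter at 90.9%. Groups were compared with limma (lmFit, eBayes with trend), ΔFosB minus control, with Benjamini-Hochberg adjustment over all genes tested. On simulated data of these 15204 genes with 200 changed, 86% of 1.25-fold changes and 100% of the larger ones (1.5-fold, 2-fold and 4-fold) were called. At each fold 42 calls were false, a larger share of the calls than the threshold of 0.05 aims at. In the data 1914 genes passed, so the simulated setting had far fewer changed genes and does not give the error rate of these calls. The median standard error was 0.068 for potassium channel genes and 0.066 for all genes. Of the 94 genes, 93 matched a RefSeq table (GRCm38.p6) by identifier.

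Named were Kcng4, Kcnab3 and Kcna2, the genes past the threshold, in each subfamily the gene of highest signal and those of highest and lowest log2 fold change, genes that passed in an alternative, and listed partners past the threshold. The partner genes with the largest differences short of it and Fosb are given beside them. Some genes that this rule takes are not reported here or drawn in the figures. The members, the lists and the rule were chosen with earlier results of these data known. Alternatives were quantile normalization, median centring, a pseudocount of 64, other filters, eBayes without a trend, robust or unmoderated tests, averaging a gene's probe sets, a replicate block, each array left out and, chosen after seeing the data, probe sets with 1 gene identifier. The software was Python 3.11.15 with pandas 2.3.3 and matplotlib 3.10.9, and R 4.3.3 with limma 3.58.1.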

Additional observations from a re-analysis of the deposited data

How the results depend on the processing

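The counts of 9 higher and 12 lower potassium channel genes stayed within 1.5 times under most alternatives. The unmoderated test gave 0 and 0, where 23 potassium channel genes and 2783 genes in all had an unadjusted p under 0.05. The upper 40% of signal left 4 higher genes, with 48 tested. Leaving out each array gave 5 to 10 higher and 6 to 10 lower genes, the fewest without control A, where 731 genes were called in place of 1914. Without control B 7 were lower, with 1304 genes called. With the replicate block 14 were higher and 15 lower, and 3857 genes passed in all. The labels give no shared animal, batch or day for the letters A and B. The A minus B differences correlated between the groups at 0.24 over all genes tested and at 0.38 over the tested potassium channel genes, from 2 pairs. No called gene changed sign under any alternative. Some genes short of the threshold did. Median centring gave log2 fold changes of -0.047 for Kcne1l, -0.022 for Kcnip4, -0.0023 for Kcnmb2, -0.0099 for Kcns3 and -0.0067 for Kcnt1, and moved the median of all genes to -0.04. Quantile normalization gave 0.012 for Kcnc4 and -0.022 for Kcne1l. With each array left out, the log2 fold change ran from -0.075 to 0.046 for Kcnc4, from -0.24 to 0.032 for Kcnd3, from -0.088 to 0.11 for Kcne1l and from -0.053 to 0.13 for Kcnip4. The cause of these changes was not tested.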
